A study of Mus musculus with 2 samples.

Results

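The stefin A genes Stfa1, Stfa2, Stfa3, Stfa2l1 and Gm5483, and their relative Cstb, were followed through the neutrophil lineage of the mouse cochlea. These 6 genes were picked by symbol, with results of these libraries already known, from 48709 genes among 48816 feature rows. Single cells were profiled by droplet-based RNA sequencing, in which each captured transcript is counted by its unique molecular identifier (UMI). The mice were C57BL/6J animals that carried the CX3CR1+/GFP and Thy1+/YFP alleles, which both groups share, and males and females were pooled. The groups were 1 library of implanted cochleae, taken 33 days after a cochlear implant was placed, and 1 library of non-implanted cochleae. Cells had been enriched with beads for CD11b, a surface protein of neutrophils, monocytes and macrophages. The series' design text says that implanted and contralateral cochleae were dissected, and the sample labels say only non-implanted. The sample labels' extraction protocol describes something else, the stria vascularis of pups and young mice, and which text holds for these libraries cannot be told. The series title names arrays that release dexamethasone and standard arrays, and the labels do not say which kind was used. The number of animals behind each library was not given for this experiment. With 1 library a group there is no replicate check, and no difference between the groups was tested. Intervals given in brackets are 95% intervals that cover counting error only.

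Stefins are small cystatins that stay inside the cell and block papain-like cysteine proteases such as cathepsins B, H, L and S. The mouse carries a row of stefin A copies at a locus where the human genome has CSTA, and mouse stefin A transcripts are known as abundant products of neutrophils. Cstb encodes stefin B, which is made in most tissues and whose loss in humans causes a progressive myoclonus epilepsy. Neutrophils arise from promyelocytes that load primary granules, pass through a dividing stage and an immature stage that load Ltf and Camp into secondary granules, and then gain Mmp8, Retnlg and the chemokine receptor Cxcr2.

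On GRCm38 (GENCODE M21) the 5 stefin A genes lay among 11 stefin genes within 335 kb of chromosome 16, from 36119946 to 36455392, and Cstb lay on chromosome 10 (78425669 to 78427622, plus strand). Stfa2l1 (36156811 to 36161953), Gm5483 (36184212 to 36188111) and Stfa1 (36276951 to 36285373) are on the plus strand. Stfa2 (36403992 to 36408457) and Stfa3 (36450537 to 36455392) are on the minus strand. Gm5483 is named Cstdc4 in RefSeq. The last 75 coding bases of the annotated transcripts are shown because they lie near the transcript end that was sequenced and show how far the copies can be told apart, with each base that differs from Stfa2l1 at the same position in capitals (5′ to 3′).
Stfa2l1: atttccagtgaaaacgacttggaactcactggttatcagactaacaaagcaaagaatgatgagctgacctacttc
Stfa2: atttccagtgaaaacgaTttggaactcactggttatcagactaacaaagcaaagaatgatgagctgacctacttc
Gm5483: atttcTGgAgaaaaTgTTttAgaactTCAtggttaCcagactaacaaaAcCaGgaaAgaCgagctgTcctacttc
Stfa3: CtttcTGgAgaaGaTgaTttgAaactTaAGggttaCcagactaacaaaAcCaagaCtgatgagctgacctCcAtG
Stfa1: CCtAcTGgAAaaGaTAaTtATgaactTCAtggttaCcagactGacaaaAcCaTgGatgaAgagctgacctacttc
Cstb: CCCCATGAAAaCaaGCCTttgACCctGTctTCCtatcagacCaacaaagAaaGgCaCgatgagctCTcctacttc
Stfa2 differed from Stfa2l1 at 1 of the 75 bases, Gm5483 at 17, Stfa3 at 18, Stfa1 at 23 and Cstb at 30. Over the whole aligned coding sequence, Stfa2 and Stfa2l1 were 96.4% identical, Gm5483 and Stfa2l1 82.5%, and Cstb and Stfa2l1 65.2%.

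Reads from such copies can be shared. Of the 50-base windows in the last 400 transcript bases, 37.0% of those of Gm5483 also occurred in another gene, which was 2010005H15Rik, itself measured at 37 UMIs in both libraries together. For Stfa1 the share was 32.5% (BC100530 and BC117090), for Stfa2l1 24.2% (Stfa2 and Gm49652) and for Stfa2 19.1% (Stfa2l1, Gm4758 and Gm49652). Stfa3 and Cstb shared no window. Gm5483 and Stfa2l1, the 2 copies with the most UMIs, shared no window with each other. How the authors' counting treated reads that fit several copies is not given in the sources used here. The split between Stfa2 and Stfa2l1, between Stfa1 and BC100530 and between Gm5483 and 2010005H15Rik is therefore uncertain. If such reads were dropped, the counts of each of these genes are too low.

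The promoters of the 5 stefin A genes were matched in RefSeq (GRCm38.p6), and the 100 bases before each annotated start are shown because the copies differ in level and in pattern along maturation, with the motif TTTAAA in capitals (5′ to 3′ on the gene's strand). RefSeq starts are used here and differ from the GENCODE starts given above for Stfa1 and Stfa2. The shown stretch lies inside the GENCODE gene for Stfa1 and mostly inside it for Stfa2.
Gm5483, chr16:36184112-36184211, plus strand: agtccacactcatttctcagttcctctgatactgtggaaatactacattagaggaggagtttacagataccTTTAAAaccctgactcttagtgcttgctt
Stfa2l1, chr16:36156711-36156810, plus strand: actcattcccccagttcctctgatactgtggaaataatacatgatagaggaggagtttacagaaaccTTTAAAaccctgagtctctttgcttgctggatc
Stfa1, chr16:36277048-36277147, plus strand: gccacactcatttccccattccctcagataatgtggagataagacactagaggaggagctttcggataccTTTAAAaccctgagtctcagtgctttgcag
Stfa2, chr16:36408364-36408463, minus strand: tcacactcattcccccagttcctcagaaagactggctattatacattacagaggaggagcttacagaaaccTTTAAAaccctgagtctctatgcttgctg
Stfa3, chr16:36455393-36455492, minus strand: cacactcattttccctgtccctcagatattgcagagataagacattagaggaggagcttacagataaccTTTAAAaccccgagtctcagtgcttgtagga
Each of the 5 sequences held TTTAAA once, 29 to 33 bases before the start, where TTTAAA occurred in the last 40 bases of 1.91% of the 32851 promoters in the table. Each also held AGGAGGAG, 49 to 53 bases before the start, a motif found within 250 bases of the start in 5.12% of all promoters. Both strands were searched, TTTAAA is its own complement, the 2 motifs do not overlap, and both were chosen after the sequences were seen. The motif TATAAA was in none of the 5 promoters, over 250 bases, against 12.4% of all. Of the other motifs searched over 250 bases, GAGGAA was in all 5 promoters (23.3% of all promoters) and TTGCNNAA in that of Stfa1 alone (9.56%). Pairwise identity of the shown stretches ran from 80.4% (Stfa2 with Stfa3, and Stfa2 with Gm5483) to 90.3% (Stfa2l1 with Gm5483), so the shared letters are those of related copies.

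After filtering, 3065 implanted and 3411 non-implanted cells remained, with 18424595 and 20374205 UMIs and a median of 4237 and 4150 UMIs per cell. The libraries shared 6 deposited barcodes. Clustering with all stefin genes left out gave 22 clusters, of which 12 were neutrophil clusters, and 75.4% of implanted and 81.4% of non-implanted cells fell in them, shares that the CD11b enrichment can set. Their classes, named by markers and therefore ending in "-like", ran from promyelocyte-like (led by Elane, Prtn3 and Mpo) through cycling granulocyte precursor-like (Fcnb, Top2a) and immature neutrophil-like (Ltf, Camp, Ngp) to transitional (Retnlg, Mmp8), mature (Retnlg, Cxcr2, Il1b) and activated neutrophil-like cells (Acod1, Cxcl2, Ptgs2). Ptprc, which encodes the leukocyte protein CD45, had a UMI in 90.0% and 93.1% of cells. Itgam, the gene of CD11b, had 0 UMIs in both libraries, where a count of 0 allows up to 0.163 and 0.147 CPM (UMIs per 1000000 UMIs of the same cells). In cells enriched for CD11b this 0 is not read as absence of the Itgam transcript, and its cause was not tested. The other named classes were macrophage-like, monocyte-like, erythroid-like, B cell-like and osteoclast-like.

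The stefin A genes were late neutrophil transcripts in both libraries. Of their 3314 implanted and 5032 non-implanted UMIs, 95.1% and 95.5% were in the neutrophil lineage. Summed over the 5 genes, the implanted library held 9.36 CPM in promyelocyte-like cells, 20.3 in cycling, 38.2 in immature, 1046 in transitional, 906 in mature and 707 in activated cells. The non-implanted library held 4.81, 22.8, 52.5, 990.1, 1019 and 925 CPM in the same order. The level in mature cells was 23.7 times that in immature cells in the implanted library (20.4 to 27.8) and 19.4 times in the non-implanted library (17.3 to 21.8). The step lay between the immature and transitional classes, where the sum was 27.4 and 18.9 times higher. The fold moved with the cells kept and with the clustering. It was 38.6 and 37.6 with at least 500 genes and at most 5% mitochondrial UMIs, 45.3 and 58.4 at clustering resolution 2, 36.1 and 33.9 without the 10 richest cells on each side, and 68.0 and 17.1 when each library was clustered alone. In mature cells against immature cells, 4 of the 4 stefin A genes measured in the implanted library (at least 20 UMIs in the classes compared) and 3 of 5 in the non-implanted library were at least 2-fold higher, where 14.3% of all genes measured were in each library. Their median log2 ratio was 3.74 over 4 genes and 3.16 over 5 genes, so the 2 medians cover different sets. Over all genes measured the median was -0.04 in each library. The limit of 20 UMIs was applied to both classes together. Among implanted cells it left out Stfa2, with 3 mature and 15 immature UMIs. The Stfa2 ratio there was 0.542 (0.101 to 1.92), so the 4 of 4 leaves out the copy that was not higher. Stfa2 and Stfa3 were not higher in the non-implanted library. The genes had been picked as neutrophil genes, so these levels are a description.

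Shares of cells with a UMI showed the same step. Thinning left out the 103 implanted and 69 non-implanted cells of all classes with fewer than 1000 UMIs. In implanted cells thinned to 1000 UMIs each, a stefin A UMI was found in 3.00% of immature (1.93 to 4.43), 26.4% of transitional, 27.5% of mature and 25.6% of activated cells. The non-implanted shares were 3.12% (2.10 to 4.45), 25.0%, 29.4% and 30.2%. Without thinning, they were 8.99%, 30.3%, 33.4% and 35.0% for implanted cells and 8.41%, 32.1%, 35.5% and 38.2% for non-implanted cells, although immature cells were deeper (medians of 5323 and 6100 UMIs) than mature cells (2507 and 2452). Cells outside the lineage were set beside these shares, and the part of free neutrophil RNA in them was not tested. In monocyte-like cells, which lack Cxcr2 transcripts but for 4.43 and 3.99 CPM, the thinned share was 0 of 265 implanted cells, which allows up to 1.13%, and 0.448% of non-implanted cells, at median depths of 6704 and 6582.5 UMIs. In macrophage-like cells the thinned share was 4.04% (1.86 to 7.52) and 4.98% (2.41 to 8.96), at median depths of 4995 and 5278 UMIs. The shares in immature cells, 3.00% and 3.12%, lay above those of monocyte-like cells and not above those of macrophage-like cells. The late classes exceeded both.

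Gm5483 and Stfa2l1 made up most of the stefin A signal. In mature cells Gm5483 was at 404 CPM in the implanted library (375 to 435) and 484 CPM in the non-implanted library (457 to 512), and Stfa2l1 at 399 (370 to 430) and 450.0 (424 to 477). Both were low in immature cells, Gm5483 at 8.76 and 9.68 CPM and Stfa2l1 at 17.1 and 19.4. Gm5483 had 0 UMIs in promyelocyte-like cells of both libraries, which allows up to 2.55 and 3.61 CPM. Gm5483 was highest in the transitional class (576 and 534 CPM), where it gave 54.4% of the stefin A UMIs of both libraries together and Stfa2l1 34.3%. In mature cells these shares were 46.4% and 44.1%. The ratio of Gm5483 in mature over transitional cells was 0.701 (0.617 to 0.797) in the implanted library. In the non-implanted library it was 0.905 (0.818 to 1.002), an interval that holds 1, and mature cluster 1 was at 583 CPM there. Gene lengths were not used, because a UMI counts a molecule at its end. Yet the windows shared with another gene were 37.0% for Gm5483, 32.5% for Stfa1, 24.2% for Stfa2l1, 19.1% for Stfa2 and 0% for Stfa3. How such reads were counted is not given, so the CPM of different copies may not compare as molecules.

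**Figure D1:**
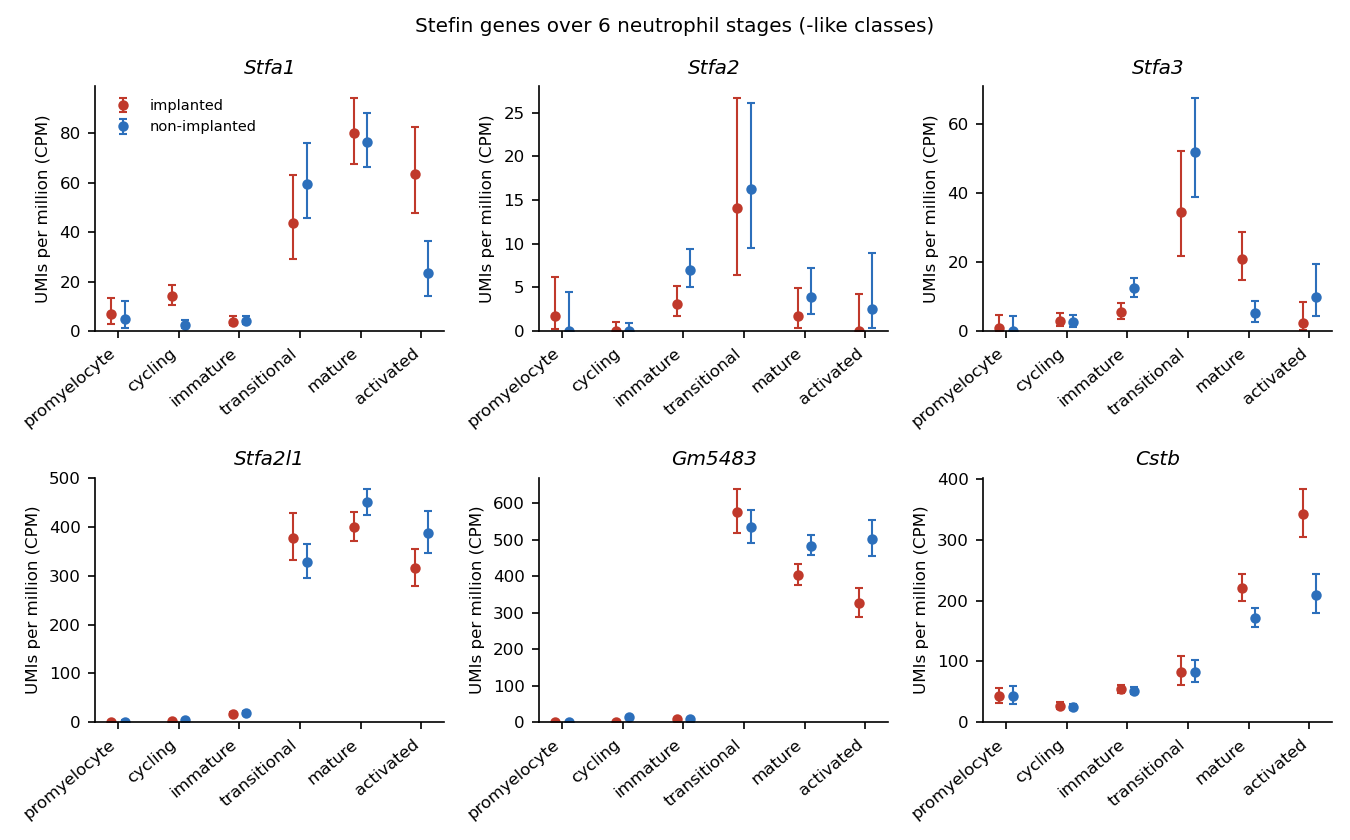
Level in CPM of the 6 genes in 6 neutrophil classes for the implanted (red) and non-implanted (blue) library, each point 1 library with its 95% counting interval and each panel with its own linear axis. Gm5483 and Stfa2l1 rise to over 300 CPM at the transitional class and stay there, Stfa2 and Stfa3 are highest in the transitional class, and Cstb rises from 83.0 CPM in transitional to 343 CPM in activated cells of the implanted library.

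Stfa1 was also highest in late classes, at a lower level. It stood at 43.8 and 59.5 CPM in transitional cells, 80.2 and 76.6 in mature cells and 63.4 and 23.4 in activated cells of the implanted and non-implanted library. Its early signal came from few cells: in cycling cells, 49 implanted UMIs lay in 5 cells, and 9 non-implanted UMIs in 7 cells. For Gm5483 in cycling cells the counts were 3 UMIs in 3 implanted cells and 55 UMIs in 7 non-implanted cells.

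Stfa2 and Stfa3 were highest in the transitional class, and Stfa2 was lower in mature cells of both libraries. Stfa2 was at 14.1 CPM (6.44 to 26.7) in transitional and 1.69 CPM (0.349 to 4.95) in mature cells of the implanted library, and at 16.3 (17 UMIs) and 3.93 (1.88 to 7.22) in the non-implanted library. Stfa3 was at 34.4 and 51.8 CPM in transitional cells and at 20.9 and 5.10 in mature cells, a ratio of 0.607 (0.349 to 1.08) in the implanted and 0.0985 (0.0493 to 0.183) in the non-implanted library. In the non-implanted library the level of Stfa3 in mature cells was 0.413 times that in immature cells (0.210 to 0.747), while in the implanted library it was 3.85 times (2.27 to 6.63). These are small counts, 37 UMIs in 8 mature implanted cells and 13 UMIs in 8 mature non-implanted cells. Among immature cells of both libraries, Stfa3 gave 20.2% and Stfa2 11.5% of the stefin A UMIs, against 1.19% and 0.310% among mature cells.

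A staging without clusters showed the same rise from low to high levels. Neutrophil lineage cells were ordered by an index of late marker UMIs (such as Cxcr2, Retnlg and Il1b) against early marker UMIs (such as Camp, Ngp and Ltf) and split into 8 ranges of equal size. These markers also describe the classes, so the index is not an independent check. It does not keep the order of the late classes. Its median was 2.91 in transitional cluster 7, 3.29 in activated cluster 3 and 3.41 to 3.62 in the mature clusters. The stefin A sum rose from 19.4 and 35.6 CPM in the third range to 149 and 259 CPM in the fourth and 921 and 1121 CPM in the fifth, for the implanted and non-implanted library. It then lay between 787 and 1127 CPM in the implanted and between 845 and 1121 CPM in the non-implanted library through the eighth. Stfa2 was highest in the fifth range of the implanted library (11.9 CPM) and in the fourth of the non-implanted library (28.2 CPM).

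Cstb had another pattern. It was found in every named class, and 32.9% of its 3500 implanted and 43.4% of its 2673 non-implanted UMIs were in the neutrophil lineage. Within the lineage it stood at 43.4 and 43.3 CPM in promyelocyte-like, 27.1 and 25.5 in cycling, 54.8 and 51.9 in immature, 83.0 and 83.5 in transitional, 221 and 172 in mature and 343 and 209 in activated cells of the implanted and non-implanted library. From immature to mature cells it rose 4.03-fold (3.44 to 4.73) and 3.31-fold (2.86 to 3.83), and from transitional to activated cells 4.13-fold (3.07 to 5.64) and 2.51-fold (1.92 to 3.28). Over that last interval the stefin A sum did not rise, with ratios of activated over transitional cells of 0.676 (0.605 to 0.756) and 0.934 (0.849 to 1.03). From mature to activated cells, 3.52% of genes were at least 2-fold higher and 2.86% lower in the implanted library, and 2.48% and 1.25% in the non-implanted library. Of 4 stefin A genes measured, Stfa3 was lower in the implanted and Stfa1 in the non-implanted library, and Cstb passed in neither (1.55 and 1.22). Cstb was highest outside the lineage, at 1578 and 1101 CPM in osteoclast-like cells (11 and 29 cells), 753 and 293 in macrophage-like and 258 and 257 in monocyte-like cells. It was at 45.3 and 61.0 CPM in B cell-like and 21.4 and 28.6 in erythroid-like cells.

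**Figure D2:**
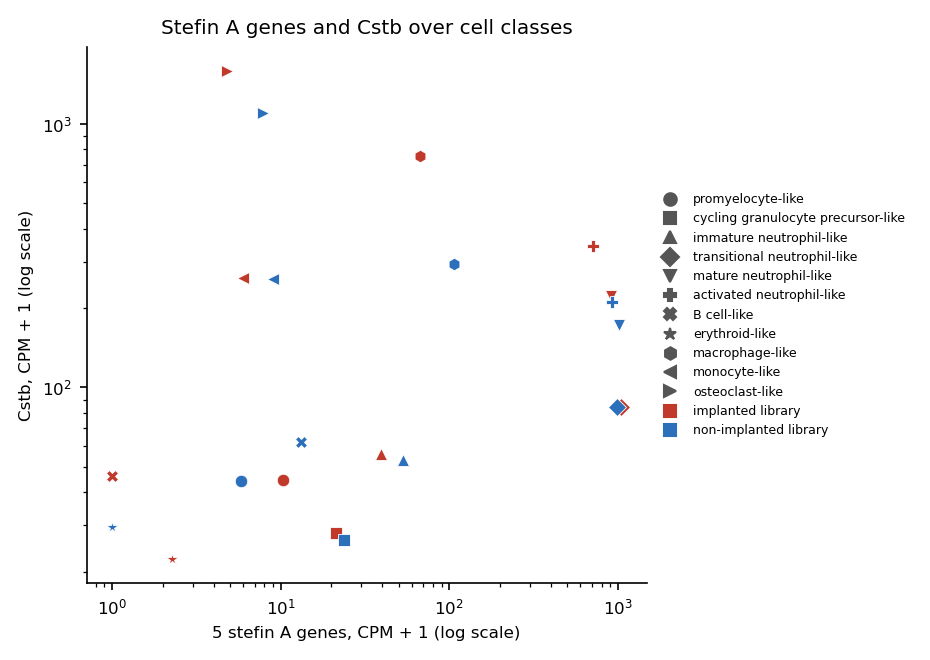
Level of the summed 5 stefin A genes (x axis) and of Cstb (y axis), both CPM + 1 on log scales, in 11 cell classes (symbols) of the implanted (red) and non-implanted (blue) library. The transitional, mature and activated classes stand at the right, near 1000 CPM of stefin A, while osteoclast-like and macrophage-like cells stand highest for Cstb.

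Outside the lineage the stefin A genes were sparse. In macrophage-like cells the sum was 66.3 CPM in the implanted and 105 CPM in the non-implanted library, and 50% of these UMIs lay in 3 and 2 cells. Retnlg, a neutrophil transcript, was at 1422 and 1525 CPM in the same cells, and the sum came to 46.6 and 69.1 UMIs per 1000 Retnlg UMIs, beside 38.8 and 44.3 in mature neutrophil-like cells. The part of neutrophil RNA in the macrophage values was not tested. In monocyte-like cells the sum was 4.99 and 7.98 CPM, in erythroid-like cells 1 and 0 UMIs, and in B cell-like cells 0 and 2 UMIs.

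The stefin A signal was carried by few cells. In the 2687 transitional, mature and activated cells, the median cell held 0 stefin A UMIs in each class and library. Gm5483 had a UMI in 214 of 1169 implanted and 288 of 1518 non-implanted late cells, and 98 and 149 cells with at least 5 UMIs held 82.1% and 87.6% of all its UMIs there. The highest cell had 71 and 55 UMIs of Gm5483, and 50% of the UMIs lay in 36 and 49 cells. Stfa2l1 was found in 274 and 379 cells, and 110 and 151 cells with at least 5 UMIs held 72.6% and 74.2% of its UMIs. Stfa1 was in 31 and 48 cells only, and 15 and 22 cells with at least 5 UMIs held 88.4% and 77.9% of its UMIs. Cstb had fewer UMIs in these cells than Gm5483 but was in more of them, 358 and 432 cells, and cells with at least 5 UMIs held 32.3% and 13.8% of its UMIs.

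**Figure D3:**
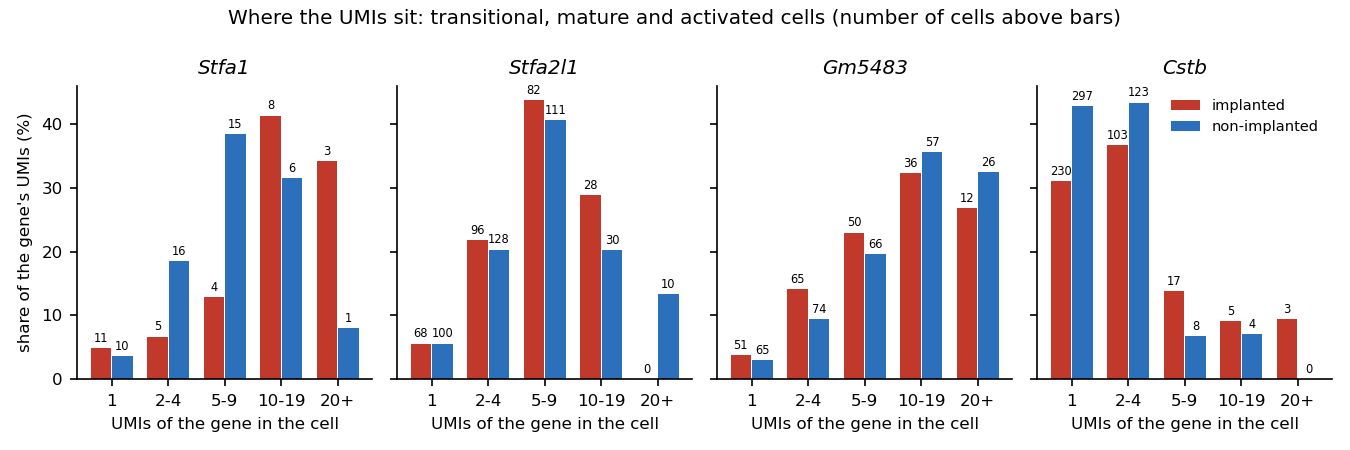
Share of each gene's UMIs (y axis, %) held by late neutrophil cells with 1, 2 to 4, 5 to 9, 10 to 19 or at least 20 UMIs of that gene (x axis), in the implanted (red) and non-implanted (blue) library, with the number of cells above each bar. Most Gm5483 UMIs sit in cells with at least 10 of them, and most Cstb UMIs in cells with 1 to 4.

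To set this against other genes, the number of cells with a UMI was divided by the number expected had the gene's UMIs been spread over cells by depth alone. Of 3546 genes with at least 200 UMIs in the late cells, Stfa1 had the lowest ratio (17.6%), Gm5483 the next (26.8%) and Stfa2l1 rank 6 (37.9%). Ccl4, Olr1 and Ccl3 held the ranks between Gm5483 and Stfa2l1. Cstb was at 73.9%, rank 219, and the median gene at 92.9%. Cxcr2, with 5496 UMIs, was at 96.4%. Retnlg was also at 96.4%, but its 210793 UMIs would reach all 2687 cells if spread by depth. The ratio counts cells with any UMI, so for so abundant a gene it says little about evenness. Ranks were alike in each library, where Stfa1 was 1st and Gm5483 2nd in both and Stfa2l1 5th of 2111 genes in the implanted and 7th of 2596 in the non-implanted library. Within mature cluster 1 alone (787 cells), Stfa1, Gm5483 and Stfa2l1 ranked 1st, 3rd and 4th of 1482 genes. This ranking is a description, with no test, and it was not matched for abundance. The order differs by the number of cells that hold 50% of a gene's UMIs. In implanted late cells this number was 6 for Stfa1, 13 for Ltf, 36 for Gm5483 and 60 for Stfa2l1. By the ratio, Ltf had come after these 3 stefins, at 45.4% and rank 9.

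**Figure D4:**
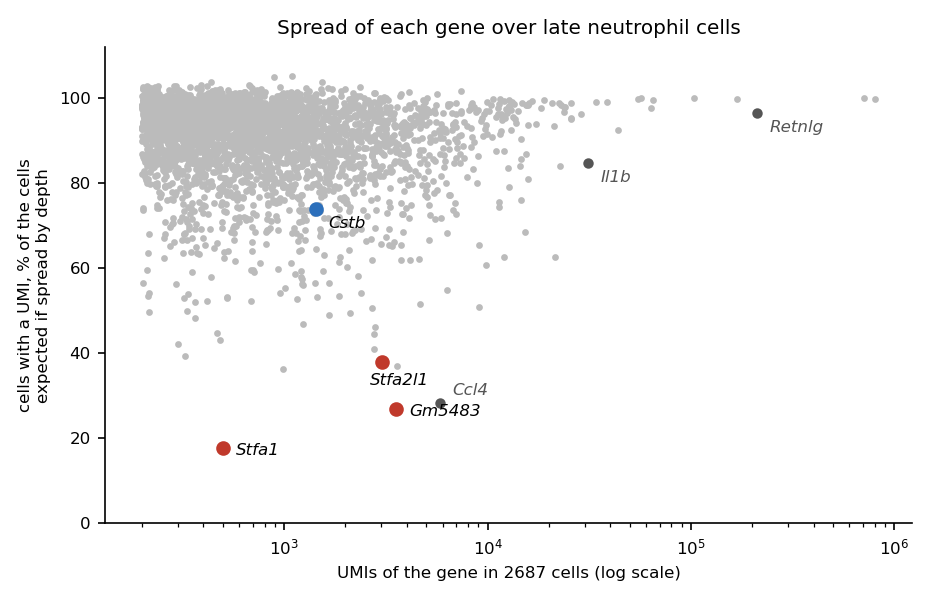
Each point is a gene, placed by its UMIs in 2687 late neutrophil cells (x axis, log scale) and by its cells with a UMI as a percentage of those expected if UMIs were spread by depth (y axis). Stfa1, Gm5483 and Stfa2l1 (red) lie below nearly all genes (grey) of like abundance, and Cstb (blue) lies at 73.9%.

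Cells rich in Gm5483 were found in all late clusters of the implanted library and in all but cluster 19 (0 of 35 cells) of the non-implanted library. Cells with at least 5 Gm5483 UMIs made up 10.3% of transitional, 9.38% of mature and 5.26% of activated implanted cells (17 of 323), and 10.7%, 8.98% and 11.97% (31 of 259) of non-implanted cells. In immature cells the shares were 0.123% and 0.532%. Against the other late cells of the same library, Gm5483-rich cells had a median of 2808.5 against 2631 UMIs in the implanted and 3105 against 2649 in the non-implanted library. Among genes with at least 20 UMIs, 4 of the 4 genes with the largest log2 ratios in Gm5483-rich cells of the non-implanted library were stefins: Stfa3 (2.08), Stfa2l1 (1.99), Stfa1 (1.73) and Gm5416 (1.59), a further stefin of the row. In the implanted library Stfa3 had the largest (2.30), Igsf5, Lgals4 and Tex10 came next, and Stfa2l1 followed (1.69). Only 0.843% and 0.310% of genes compared were at least 2-fold higher in these cells. Cstb was not among them, with log2 ratios of -0.48 and -0.01. Of Stfa1-rich cells there were 15 and 22. None of the 8 genes with the largest log2 ratios in the implanted ones was a stefin (Tmem176b, 2.74, was first), and in the non-implanted ones BC100530 (4.17), which shares 50-base windows with Stfa1, was the only stefin among the 8. Stfa2l1 was 3.41 times (2.56 to 4.46) and 2.84 times (2.24 to 3.56) higher in Stfa1-rich than in other late cells.

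In mature cells thinned to 1000 UMIs, Gm5483 was detected in 31.4% of cells with a Stfa2l1 UMI (23.1 to 40.5) and 9.62% of cells without one (7.25 to 12.5) in the implanted library, and in 33.5% (27.0 to 40.6) and 10.1% (8.07 to 12.5) in the non-implanted library. Cstb was detected in 13.5% of implanted cells with a stefin A UMI (8.83 to 19.4) and 17.7% of those without (14.3 to 21.4), and in 11.3% (7.89 to 15.6) and 14.9% (12.3 to 17.9) of non-implanted cells, intervals that overlap. Yet many cells were rich in a particular copy. Of 93 implanted and 142 non-implanted late cells with at least 10 stefin A UMIs, 42 and 63 drew at least 90% of them from 1 copy. Gm5483 led in 49 and 85 of these cells, Stfa2l1 in 29 and 47, Stfa1 in 14 and 8 and Stfa3 in 1 and 2. The share of Gm5483 in such a cell had a median of 53.8% and 61.0% and quartiles from 9.09% to 89.5% in implanted and from 30.6% to 92.3% in non-implanted cells.

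Between the libraries, the stefin A sum was lower and Cstb higher in the implanted neutrophil lineage. The sum was 247 CPM in the implanted and 308 CPM in the non-implanted library, a ratio of 0.801 (0.765 to 0.838), and Cstb was 90.2 and 74.4 CPM, a ratio of 1.21 (1.12 to 1.32). By copy the ratio was 0.745 for Gm5483 (0.697 to 0.797), 0.825 for Stfa2l1 (0.769 to 0.885), 0.735 for Stfa3 (0.566 to 0.949), 0.485 for Stfa2 and 1.16 for Stfa1 (0.990 to 1.37). No stefin A gene was at least 1.5-fold apart on the log2(CPM + 5) scale, where 0.629% of 12246 genes were higher and 0.0898% lower, and the median log2 ratio was -0.29 over the 5 genes and 0.03 over all genes. With both libraries given the same mix of the 12 clusters, the ratio of the sum was 0.875 and that of Cstb 1.30. Because few cells hold the stefin A UMIs, these intervals are too narrow as a measure of the libraries.

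The stefin A ratio was not the same in all clusters. It was 0.517 in cluster 6 (immature, 0.384 to 0.692), 1.06 in the transitional cluster 7 (0.957 to 1.17), 0.764 in the activated cluster 3 (0.686 to 0.851), and in the mature clusters 1.24 in cluster 8 (1.10 to 1.40), 0.812 in cluster 1, 0.558 in cluster 9 (0.459 to 0.674) and 3.08 in cluster 19 (1.94 to 5.06), a cluster of 36 and 35 cells led by interferon-induced genes such as Ifit1 and Rsad2. Over the mature class the ratio was 0.889 (0.835 to 0.946). The share of cells with a stefin A UMI differed less: 33.4% of mature implanted cells (29.8 to 37.2) and 35.5% of non-implanted cells (32.5 to 38.6) had one. In the activated class these shares were 35.0% (29.8 to 40.5) and 38.2% (32.3 to 44.4). When each cell was allowed at most 5 stefin A UMIs, the ratio was 0.890 over the lineage and 0.962 over mature cells. Cstb was 1.64 times higher in implanted activated cells (1.35 to 1.99) and 1.93 times higher in cluster 9 (1.49 to 2.51), and near 1 in the transitional cluster (0.994, 0.693 to 1.41). Macrophage-like markers were higher in the implanted library in these groups, and also in transitional cells, where the Cstb ratio was near 1. The 13 macrophage-like markers summed to 615 and 348 CPM in activated cells of the implanted and non-implanted library, and to 269 and 179 in transitional cells. They summed to 564 and 472 in mature cells and 959 and 718 in cluster 9, against 31358 and 19099 in macrophage-like cells. The part of macrophage RNA in the Cstb ratios was not tested. In activated cells 11 of the 13 were higher in the implanted library, and Trem2 was at 0 UMIs in the non-implanted one. The implanted late cells with at least 5 Cstb UMIs were led by Gdf15 (log2 ratio 5.04) and the macrophage gene Gpnmb (5.00), and all 25 of their Gpnmb UMIs lay in 1 of 25 cells. A marker UMI was held by 52% of these cells and 58.4% of the other implanted late cells. In the non-implanted library these shares were 91.7% and 45.3%. Without the cells that held a marker UMI, a choice made after seeing the data, the Cstb ratio was 1.75 in activated cells (1.28 to 2.39), 1.82 in mature cells and 3.11 in cluster 9 (2.06 to 4.77). The stefin A ratio then turned in activated cells, to 1.20 (1.02 to 1.40, 124 and 146 cells), and was 0.975 in mature cells (0.883 to 1.08), 0.237 in cluster 9 and 0.904 over the lineage. Of the genes measured in activated cells, 6.99% were at least 1.5-fold higher and 7.36% lower in the implanted library. Among 3 stefin A genes measured there, Stfa1 was higher (55 UMIs in 8 cells against 19 in 6) and Gm5483 lower, and Cstb was higher. In mature cells 2.09% and 2.28% of genes were higher and lower, and of 4 stefin A genes Stfa3 was higher. In transitional cells these shares were 4.98% and 7.07%, and 0 of 5 stefin A genes passed. In immature cells they were 0.836% and 0.721%, and of 5 stefin A genes Stfa3 was lower.

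**Figure D5:**
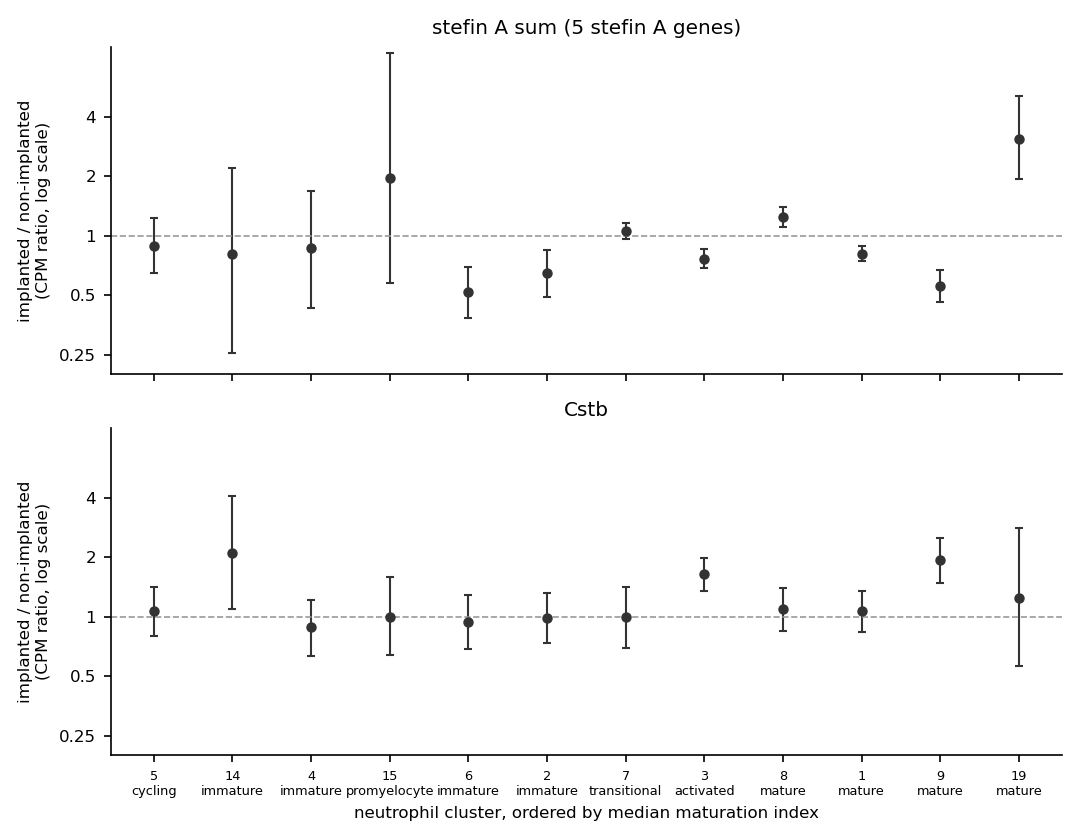
Ratio of CPM, implanted over non-implanted (y axis, log scale, dashed line at 1), for the 5 summed stefin A genes (top) and Cstb (bottom) in 12 neutrophil clusters ordered by maturation index (x axis), with 95% counting intervals. The stefin A ratio runs from 0.517 in cluster 6 to 3.08 in cluster 19, and the interval of Cstb lies above 1 in clusters 14, 3 and 9.

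Cstb also differed in macrophage-like cells, at 753 CPM in the implanted and 293 CPM in the non-implanted library (ratio 2.57, 2.30 to 2.87). In these cells 8.4% of genes measured were at least 1.5-fold higher and 8.6% lower in the implanted library, and of 3 stefin A genes measured Gm5483 was lower (27 and 61 UMIs). Clusters 10 (132 implanted and 169 non-implanted cells), 13 (84 and 68) and 21 held these cells. Cluster 21, led by Mmp12, Gpnmb and Spp1, held 61 implanted and 2 non-implanted cells and had 1461 CPM of Cstb in the implanted library. In cluster 10, led by H2-Eb1, Cd74 and C1qa, Cstb was at 311 CPM (278 to 347) and 276 CPM (249 to 306), and in cluster 13 at 718 (567 to 898) and 450.2 (328 to 602). Cluster 13 was shallow, with a median of 883 UMIs a cell, and its levels rest on 77 and 45 Cstb UMIs.

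The other stefins of the row were rare, from 2 UMIs for Csta1 to 121 for BC100530 in both libraries together. Cysteine cathepsins, proteases that stefins act on, were listed together with legumain. Of these, 4 of 8 measured were at least 2-fold higher and 1 lower in mature than in immature cells, in each library. Of all genes 14.3% were higher, and 11.3% and 11.5% were lower. Those that were higher were Ctsl (148 and 172 CPM in mature cells), Ctsz (93.8 and 90.3), Ctss (47.4 and 32.2) and Lgmn (10.7 and 11.4), and Ctsh was lower (84.2 and 91.5). In macrophage-like cells the 4 higher ones stood at 1236 and 227, 1190 and 662, 2878 and 1812, and 1037 and 870 CPM, in that order. The 13 macrophage-like markers summed to 564 and 472 CPM in mature cells. The part of macrophage RNA in the mature values was not tested. The median log2 ratio of the 8 was 0.70 and 0.46 in the implanted and non-implanted library. Of the other cystatins, Cst3, a secreted inhibitor of the same proteases, was 897 and 895 CPM in mature cells against 298 and 313 in immature cells. Cst7 went the other way, with 125 and 149 CPM in promyelocyte-like and 0.565 and 0.393 CPM in mature cells. Of other leukocyte protease inhibitors, 3 of 8 measured in the implanted and 3 of 9 in the non-implanted library were higher in mature cells (Slpi, Timp2 and Wfdc17). Lower were 4 and 5 of them (Serpinb10, Serpinb6a, Wfdc21, Serpinb1a and, in the non-implanted library, Spint2). The median log2 ratio of these inhibitors was -1.13 and -1.20. Serpinb1a is an inhibitor of neutrophil serine proteases (16.4 and 16.9 CPM in mature, 508 and 545 in immature cells). In implanted over non-implanted activated cells, Ctsb, Ctss and Lgmn were at least 1.5-fold higher, 3 of 7 measured, and none of the 7 was lower, where 6.99% of all genes were higher and 7.36% lower. Their median log2 ratio was 0.54. These genes are high in macrophage-like cells (3006, 2878 and 1037 CPM in the implanted library), and macrophage-like markers were higher in implanted activated cells. Without cells that held a marker UMI, the ratio was 2.03 for Ctsb (1.20 to 3.49), 4.55 for Ctss (1.43 to 18.97) and 1.04 for Lgmn (0.206 to 4.83). These ratios rest on 39 and 25 UMIs of Ctsb, 14 and 4 of Ctss and 4 and 5 of Lgmn. A cell without a marker UMI can still hold macrophage RNA, and the part of such RNA in the activated values was not tested.

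The genes most like the stefin A sum were sought over 42 points (clusters in each library with at least 20 cells) among 9411 genes. The 10 with the highest Pearson r of log2(CPM + 5) were Asprv1 (0.953), Il1f9 (0.951), Cxcr2 (0.940), Plk3, Ggt5, Cd101, Sh2d3c, Il1r2, Hcar2 and Gm17619 (0.924). The 5 most like Cstb were Bri3 (0.880), Cd68 (0.877), Ninj1, Fabp5 and Ftl1 (0.864). Among the members, r was 0.942 for Stfa2l1 with Gm5483, 0.779 for Stfa2 with Stfa3 and 0.338 for Cstb with the stefin A sum. The points share libraries, depth and the marker genes that formed the clusters, and no p is given.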

How the data were processed

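The deposited matrices hold whole-number UMI counts for each gene in each barcode, not normalized, and their headers name Cell Ranger 3.0.1. Seurat and mm10 are listed in the submitters' processing notes. No source used here names the annotation. Rows that are not mouse genes (11 UMIs in each library) were left out. Barcodes with fewer than 200 genes or over 10% mitochondrial UMIs were removed (82 implanted, 59 non-implanted), then those with the highest Scrublet doublet scores (0.8% per 1000 barcodes, 84 and 102). Clustering used 2000 variable genes, 30 principal components, 15 neighbours and Leiden resolution 1, without stefin genes. The rule that turned markers into class names was set after the clusters were seen. Counts were summed per library and class and given as CPM, with exact Poisson, Clopper-Pearson and conditional intervals and no test; the interval code was tested on simulated data. Members and lists were chosen with earlier results of these data known. Named genes are the 6 members, list genes past the fold (1.5 between libraries, 2 between stages), the 10 and 5 most alike, and cluster leaders; those of the spread and rich-cell rankings were named after their values were seen. Python 3.11.15, scanpy 1.11.5, leidenalg 0.10.2, scipy 1.17.1 and Biopython 1.88 were used. Alternatives changed filters, doublets, clustering, depth, weighting and the copies counted.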

Additional observations from a re-analysis of the deposited data

Results flagged for a closer look

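Stfa3 stood on opposite sides of 1 in 2 neutrophil classes. The ratio of its CPM, implanted over non-implanted, was 4.09 in mature neutrophil-like cells (2.13 to 8.39) and 0.438 in immature neutrophil-like cells (0.270 to 0.691). The difference between the classes was not tested, since there is 1 library of each kind. The mature value rests on 37 UMIs in 8 implanted cells and 13 UMIs in 8 non-implanted cells, and the immature value on 26 UMIs in 11 cells and 78 UMIs in 25 cells.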

How the results depend on the processing

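The Cstb ratio between libraries over the neutrophil lineage (1.21) kept its direction and size under 17 of 18 alternatives, from 1.12 to 1.30, and was 1.39 without cells that held a UMI of a macrophage-like marker. The stefin A ratio over the lineage (0.801) was below 1 under 24 of 25 alternatives. It was 0.852 without Gm5483, 0.890 with at most 5 UMIs counted in a cell, 0.875 with the same mix of clusters, 0.765 with cells thinned to 1000 UMIs and 0.904 without marker-holding cells. Taken alone, Gm5483 gave 0.745, Stfa3 0.735 and Stfa2 0.485, and Stfa1 reversed it (1.16). In mature cells (0.889) it was 0.962 with at most 5 UMIs a cell, 0.768 with at least 500 genes and at most 5% mitochondrial UMIs, 0.956 at resolution 2, 0.975 without marker-holding cells and 0.970 with each library clustered on its own; Stfa2 alone gave 0.432, and Stfa1 (1.05) and Stfa3 (4.09) reversed it. The cap, the cluster mix and the left-out cells were chosen after seeing the data.

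The mature over immature fold (23.7 implanted, 19.4 non-implanted) reversed with Stfa2 alone (0.542 and 0.563) and, in the non-implanted library, with Stfa3 alone (0.413; implanted 3.85). In the same order of libraries it was 46.1 and 50.0 for Gm5483 alone, 17.1 and 12.5 without Gm5483, 15.9 and 14.3 with a pseudocount of 20 CPM, 17.9 and 12.9 as a mean of per-cell CPM, 15.6 and 16.3 with at most 5 UMIs a cell, and 36.1 and 33.9 without the 10 richest cells on each side. It was 38.6 and 37.6 with the stricter cell filter, 19.05 and 16.2 with no doublets removed, 45.3 and 58.4 at resolution 2, 31.6 and 27.2 with stefin genes kept in the clustering, and 68.0 and 17.1 with each library clustered on its own. In the non-implanted library it was also 17.2 without Stfa2l1, 23.3 for Stfa2l1 alone, 14.9 with thinned cells and 27.8 at resolution 0.5. The cause was not tested. No paired analysis was possible because each group is 1 library. Depth limits Stfa2 and Stfa3, which had 103 and 267 UMIs in all.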
